A study of Mus musculus with 12 samples.

Results

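Alpha chain V and J segments were read from single T cells of mouse MC38 colon carcinomas. The members are the productive alpha chain contigs of the T cell receptor (TCR) libraries, 1 contig per rearranged chain, with the V segment, the J segment and the number of unique molecular identifiers (UMIs) assigned to each. They were 2834 contigs in 2458 cells, out of 2740 cells kept from 2816 deposited cell barcodes. No cell had more than 2. The contigs held 2118 distinct rearrangements (V, J and nucleotide sequence of the junction, CDR3) built from 86 V genes in 19 V families and from 43 J segments.

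The tumours grew in Kaedehet mice, whose cells carry a green fluorescent protein that violet light turns red. On day 14 the lymph node draining the tumour was exposed to such light in every group. Red T cells of a tumour therefore came through that node, and green T cells were not exposed. Irradiated tumours (RT) were given 12 Gy right after, and the others (NT) none. The 6 conditions were RT and NT collected after 24 h (day 1), and RT with FTY720, FTY720, RT and NT collected after 72 h (day 3). FTY720, a drug that holds lymphocytes in lymphoid organs, was injected at 10 µg on day 15. Each condition had 2 replicates, each a pool of 4 tumours from 4 mice, and CD4 and CD8 cells were enriched before live CD90.2+ cells were sorted by colour. This gave 24 hashed samples in 12 tumour pools and 4 wells, with RT day 1, NT day 1 and NT day 3 in 1 well and the other 3 conditions in another. RT against NT at day 3 without FTY720 is therefore also a comparison between wells, and so is FTY720 alone against NT at day 3, which is part of FTY720 against no FTY720.

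The alpha locus carries many V segments upstream of a long row of J segments, which are numbered down towards the constant region, so that a high J number lies close to the V segments. During thymocyte development a locus can rearrange more than once, each round joining a V farther upstream to a J farther downstream. Both chromosomes rearrange, and unlike the beta chain the alpha chain is not strictly limited to 1 allele, so a T cell can carry a pair of productive alpha chains. The alpha CDR3 spans the join and, with the beta CDR3, contacts the peptide on an MHC molecule.

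The sequences below are examples of rearrangements described in the results. Each is the CDR3 from its first cysteine codon to the end of the J part, 5′ to 3′, as in the deposited contigs. The first 6 are TRAJ7 rearrangements of CD8 cells on different V genes. They are shown because TRAJ7 was used more in CD8 than in CD4 lineage cells of these tumours. Capitals mark the last 27 bases, which all 6 share.
TRAV1 with TRAJ7: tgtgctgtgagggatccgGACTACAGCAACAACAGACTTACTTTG
TRAV10N with TRAJ7: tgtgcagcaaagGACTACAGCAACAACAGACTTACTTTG
TRAV8N-2 with TRAJ7: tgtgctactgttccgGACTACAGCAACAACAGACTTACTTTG
TRAV7D-2 with TRAJ7: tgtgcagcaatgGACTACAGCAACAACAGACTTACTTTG
TRAV3N-3 with TRAJ7: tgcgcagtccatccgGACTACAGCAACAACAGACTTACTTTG
TRAV12N-2 with TRAJ7: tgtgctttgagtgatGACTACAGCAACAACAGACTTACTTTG
These 6 were found in 20, 19, 12, 10, 8 and 5 CD8 cells, in the order listed. Each of the first 5 was found with 1 beta chain, whereas the TRAV12N-2 rearrangement was found with 3 different beta chains.

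The next set is shown because each of these rearrangements was found in more than 1 tumour pool with more than 1 beta chain. The first 3 are from CD8 cells, the next 2 from regulatory T cells (Treg) and the next 2 from conventional CD4 cells. The last is the commonest nucleotide form of the invariant alpha chain of natural killer T cells, which recognise lipids on CD1d. Nothing is capitalised in this set.
TRAV3N-3 with TRAJ22: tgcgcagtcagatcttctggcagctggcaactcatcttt
TRAV6-7-DV9 with TRAJ53: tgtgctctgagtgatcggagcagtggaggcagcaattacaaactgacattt
TRAV9N-3 with TRAJ12: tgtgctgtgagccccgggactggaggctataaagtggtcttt
TRAV3N-3 with TRAJ17: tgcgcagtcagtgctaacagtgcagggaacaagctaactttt
TRAV14-3 with TRAJ56: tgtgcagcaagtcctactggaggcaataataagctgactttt
TRAV4-4-DV10 with TRAJ50: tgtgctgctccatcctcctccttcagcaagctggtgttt
TRAV6N-7 with TRAJ22: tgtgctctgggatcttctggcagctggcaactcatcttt
TRAV11 with TRAJ18: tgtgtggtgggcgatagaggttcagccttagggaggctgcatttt
The TRAV3N-3 with TRAJ22 rearrangement was the most widely shared, in 15 CD8 cells of 5 pools with 9 different beta chains.

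Lineage was set per cell from marker UMIs: Treg for at least 2 UMIs of Foxp3, the transcription factor that defines regulatory T cells, CD4 conventional for at least 2 UMIs of Cd4 with 0 of Foxp3, both with under 2 of Cd8a, and CD8 for at least 2 UMIs of Cd8a, at least 3 times as many as of Cd4, and under 2 of Foxp3. This gave 538 Treg (493 with an alpha chain), 453 CD4 conventional (412), 1540 CD8 (1428) and 209 cells in no lineage (125). Genes that the rule did not use followed the same lines: Ikzf2, a transcription factor of Tregs, stood at 1743 CPM (UMIs of the gene scaled to a fixed total per group) in Treg, 174 in CD4 conventional and 117 in CD8 cells, Cd40lg, a ligand of helper T cells, at 24.2, 337 and 46.7 CPM, and Cd8b1, the second chain of the CD8 coreceptor, at 11.2, 8.33 and 1065 CPM. Rag1 and Rag2, the recombinase genes, had 0 UMIs in every lineage. Of the markers of other cells, the epithelial keratin Krt8 had 0 UMIs, whereas the epithelial adhesion molecule Epcam had a UMI in 80 Treg (14.9%), 13 CD4 conventional (2.87%) and 88 CD8 cells (5.71%), and Itgam, an integrin of myeloid cells, in 13.8%, 1.10% and 4.16%. Lyz2, Csf1r and H2-Aa of myeloid cells, Col1a1 of fibroblasts and Cd79a of B cells had a UMI in 0.130% to 5.76% of a lineage, and Ms4a1, another B cell gene, in at most 1 cell. The part of such signal in the lineage results was not tested. Hashed samples held 17 to 322 cells (median 60), at median UMI counts of 13896 to 26106 per cell and medians of 10 to 22 alpha UMIs per chain. Because cells of 1 clone carry 1 rearrangement, usage was counted over distinct rearrangements, each once per tumour pool and lineage: 511 in Treg, 445 in CD4 conventional and 1193 in CD8.

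Some clones were shared between hashed samples, in a pattern that does not follow the samples' names. Colours were taken from the hashtag names in the deposited matrices, and in the replicate 2 wells these run opposite to the tag numbers of the sample labels. Clones with the same alpha and beta nucleotides were shared between replicate 1 of one colour and replicate 2 of the other colour, samples that carry the same tag sequence, in 10 of 12 such pairs, with 66 shared clones. Red cells of NT day 3 replicate 1 and green cells of replicate 2 shared 13 clones, which made up 40 of 108 cells (37.0%) and 34 of 248 cells (13.7%). Red and green cells of the same replicate shared clones in 3 of 12 pairs (6 clones), the same colour of both replicates in 3 of 12 pairs (4 clones), and samples of different conditions in 2 of 240 pairs (3 clones). Sharing within a condition thus followed the tag sequence more than the named replicate or colour. Tests over pools below were therefore also run with pools formed by tag sequence, and red against green also with the replicate 2 colours exchanged, as the tag numbers of the labels give them. Which of the names holds was not tested, and colours of replicate 2 cells below are by the matrix names.

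**Figure D1:**
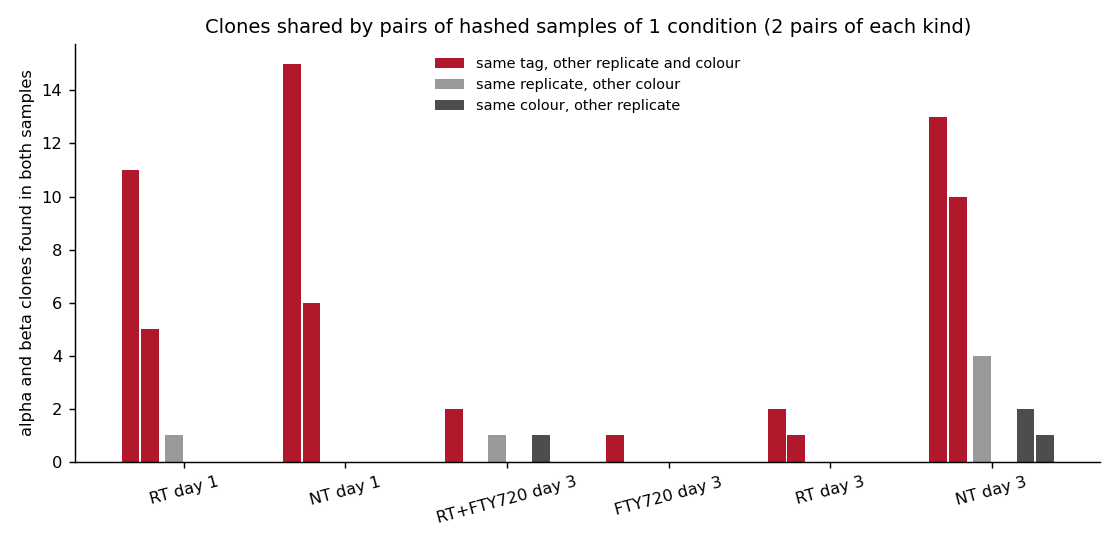
Number of clones with the same alpha and beta chain shared between hashed samples of the same condition (vertical axis, clones) in each condition (horizontal axis), 1 bar per pair of samples, coloured by how the samples relate. Pairs with the same tag sequence, other replicate and other colour reach 15 shared clones, while pairs of 1 replicate reach 4 and pairs of 1 colour reach 2.

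V family usage differed between Treg and CD8 cells in both directions. TRAV14, TRAV4 and TRAV5 rose in Treg cells, and TRAV16 and TRAV19 fell. In all, 5 of 18 V families tested passed (27.8%; edgeR quasi-likelihood test with the tumour pool as a block, Benjamini-Hochberg adjusted p under 0.05). The other V families kept broadly the same order: TRAV6 and TRAV7 were the leading families in each lineage, TRAV6 with 15.07% of rearrangements in Treg, 14.6% in CD4 conventional and 17.8% in CD8 cells, and TRAV7 with 14.1%, 14.6% and 13.2%.

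TRAV16 had the lowest adjusted p of the V families. It made up 0% to 16.7% of the rearrangements of a pool in Treg cells (median 0%, present in 4 of 12 pools), 0% to 7.69% in CD4 conventional cells (median 0%, 5 of 11 pools) and 0% to 12.3% in CD8 cells (median 7.20%, 11 of 12 pools). The ranges overlap, through 1 Treg pool of 6 rearrangements at 16.7% and 1 CD8 pool at 0%. In all it was 7 of 511 rearrangements (1.37%) in Treg, 14 of 445 (3.15%) in CD4 conventional and 98 of 1193 (8.21%) in CD8 cells. The log2 fold change was −2.40 (SE 0.44, edgeR adjusted p = 1.62e-06) in Treg against CD8 and −1.33 (SE 0.38, edgeR adjusted p = 0.00926) in CD4 conventional against CD8. All 3 genes of the family contributed in CD8 cells, with 44 rearrangements of TRAV16N, 28 of TRAV16D-DV11 and 26 of TRAV16, while Treg cells had 4, 1 and 2 of these and CD4 conventional cells 11, 0 and 3. These genes are close copies, so the split among them is uncertain.

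TRAV14 ran the other way. Its share was 0% to 20% per pool in Treg cells (median 13.2%), 0% to 18.8% in CD4 conventional cells (median 11.1%) and 0% to 26.9% in CD8 cells (median 6.67%). The pools overlap widely, and the highest value is a CD8 pool of 26 rearrangements. Over all pools it was 70 of 511 (13.7%) in Treg, 53 of 445 (11.9%) in CD4 conventional and 84 of 1193 (7.04%) in CD8 cells, log2 fold changes of 0.95 (SE 0.25, edgeR adjusted p = 0.00179) for Treg against CD8 and 0.80 (SE 0.28, edgeR adjusted p = 0.0364) for CD4 conventional against CD8. The call against CD8 in CD4 conventional cells was lost in 8 of 23 other settings, among them the fits that left out either NT day 1 pool, NT day 3 replicate 1 or RT day 3 replicate 2. TRAV14 and TRAV16 were the 2 of 18 families (11.1%) that passed in CD4 conventional against CD8 cells.

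TRAV4 and TRAV5 were higher in Treg than in CD8 cells. TRAV4 made up 7.24% of rearrangements in Treg, 6.97% in CD4 conventional and 3.69% in CD8 cells (Treg against CD8 log2 fold change 0.99, SE 0.34, edgeR adjusted p = 0.0190). TRAV5 made up 5.87%, 3.15% and 2.60% (Treg against CD8 1.07, SE 0.39, edgeR adjusted p = 0.0208). Of 23 other settings TRAV4 lost its call in 2 (without NT day 1 replicate 2 and with pools formed by tag sequence) and TRAV5 in 3 (without either NT day 1 pool and without RT day 3 replicate 2). TRAV19 was not found in Treg cells, 0 of 511 rearrangements, which allows a share of up to 0.587%, against 8 of 445 (1.80%) in CD4 conventional and 12 of 1193 (1.01%) in CD8 cells. Against that limit, which takes 3 rearrangements as the floor, the observed share was 3.06-fold higher in CD4 conventional and 1.71-fold higher in CD8 cells. Counting error in the CD4 conventional and CD8 shares is not covered, so neither ratio is a minimum. TRAV19 was present in 4 of 11 CD4 conventional and 4 of 12 CD8 pools. edgeR called TRAV19 in Treg against CD4 conventional and in Treg against CD8 cells (adjusted p = 0.0154 and 0.0190). It was the 1 of 18 families called between Treg and CD4 conventional cells (5.56%). DESeq2 called TRAV19 in neither comparison (adjusted p = 0.496 and 0.697).

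Among J segments TRAJ7 showed the largest difference between the lineages. In Treg against CD8 cells 7 of 41 J segments passed (17.1%): TRAJ7, TRAJ33 and TRAJ32 fell, and TRAJ56, TRAJ44, TRAJ17 and TRAJ23 rose. In CD4 conventional against CD8 cells 3 of 41 passed (7.32%): TRAJ7 and TRAJ33 fell and TRAJ39 rose. Between Treg and CD4 conventional cells 0 of 41 passed (0%), with 2 (TRAJ56 and TRAJ23) at an unadjusted p under 0.05 in edgeR, and DESeq2 also called 0.

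TRAJ7 was the most used J segment of CD8 cells. Its share of rearrangements was 0% to 4.55% per pool in Treg cells (median 0%, present in 5 of 12 pools), 0% to 5.13% in CD4 conventional cells (median 0%, 5 of 11 pools) and 5.88% to 20% in CD8 cells (median 11.8%, 12 of 12 pools). Every CD8 pool thus lay above every pool of both other lineages. In all TRAJ7 was 8 of 511 rearrangements (1.57%) in Treg, 7 of 445 (1.57%) in CD4 conventional and 121 of 1193 (10.1%) in CD8 cells. The log2 fold change was −2.54 (SE 0.40, edgeR adjusted p = 1.06e-08) in Treg and −2.50 (SE 0.42, edgeR adjusted p = 1.90e-07) in CD4 conventional against CD8 cells.

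TRAJ33 and TRAJ56 had the next lowest adjusted p in Treg against CD8 cells. TRAJ33 was 1.37% of rearrangements in Treg (pools 0% to 10.0%, median 0%), 2.02% in CD4 conventional (0% to 11.1%, median 0%) and 5.78% in CD8 cells (0% to 13.8%, median 7.02%). Its log2 fold change was −1.95 (SE 0.46, edgeR adjusted p = 0.000354) in Treg and −1.45 (SE 0.44, edgeR adjusted p = 0.0230) in CD4 conventional against CD8 cells, the second call being lost without RT day 3 replicate 2, and likewise without the replicate 1 pool of NT day 1 or of NT day 3, or with pools formed by tag sequence. TRAJ56 was 5.87% in Treg (0% to 9.48%, median 2.54%), 2.02% in CD4 conventional (0% to 12.5%, median 0%) and 1.34% in CD8 cells (0% to 3.57%, median 0.554%), a log2 fold change of 1.91 (SE 0.42, edgeR adjusted p = 0.00014) in Treg against CD8 cells. By their numbers TRAJ56 lies near the V segments and TRAJ7 near the constant region.

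The remaining J calls were less stable. TRAJ32 made up 1.37% in Treg and 4.28% in CD8 cells (log2 fold change −1.50, SE 0.49, edgeR adjusted p = 0.0237). TRAJ44 (2.94% and 0.922%, log2 fold change 1.55), TRAJ17 (4.70% and 2.01%, 1.13) and TRAJ23 (6.26% and 3.10%, 0.95) were called in Treg against CD8 cells at edgeR adjusted p = 0.0316, 0.0464 and 0.0464. TRAJ39 was 4.04% in CD4 conventional and 1.34% in CD8 cells (1.46, SE 0.48, edgeR adjusted p = 0.0366). Of the 24 other settings run for each, TRAJ32 lost its call in 4, TRAJ44 in 10, TRAJ17 in 12, TRAJ23 in 14 and TRAJ39 in 9, whereas TRAJ7, TRAJ33 and TRAJ56 in Treg against CD8 cells, TRAJ7 in CD4 conventional against CD8 cells, TRAV14 and TRAV16 in Treg against CD8 cells and TRAV16 in CD4 conventional against CD8 cells kept theirs in every setting run.

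**Figure D2:**
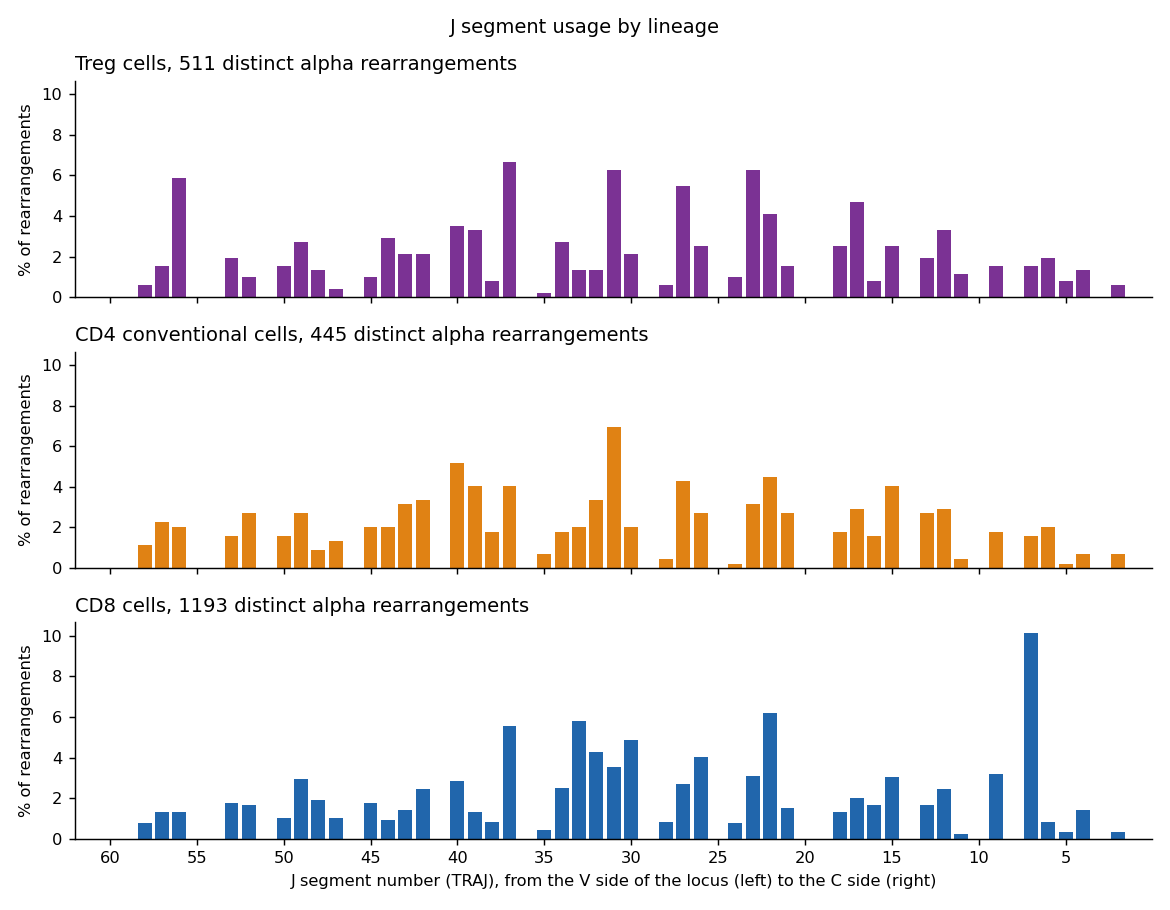
Share of distinct rearrangements per J segment (vertical axis, percent), J segments ordered by number from the V side to the constant side (horizontal axis), for Treg, CD4 conventional and CD8 cells from top to bottom. TRAJ7 stands at 10.1% in CD8 cells against 1.57% in each of the other lineages, and TRAJ56 at 5.87% in Treg cells against 1.34% in CD8 cells.

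**Figure D3:**
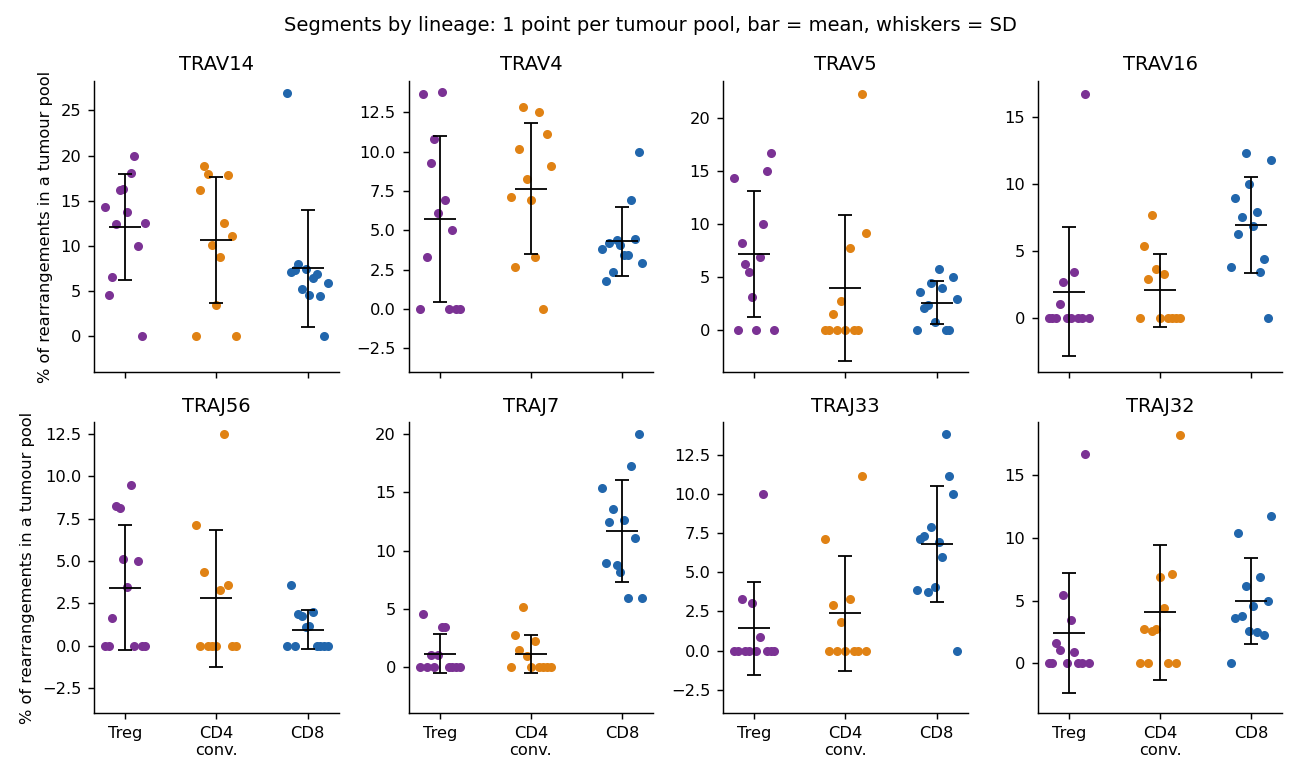
Share of distinct rearrangements per tumour pool (vertical axis, percent; 1 point per pool of at least 5 rearrangements, horizontal bar for the mean, whiskers for the SD) of 8 called segments in Treg, CD4 conventional and CD8 cells. For TRAJ7 the 12 CD8 pools lie between 5.88% and 20%, all above the Treg and CD4 conventional pools, while for TRAV14 the pools of the lineages overlap.

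Some joins of V family and J segment stood out within a lineage, given here as a description. In CD8 cells TRAV7 with TRAJ7 was the commonest pair, with 36 of 1193 rearrangements (3.02%) in 10 pools, followed by TRAV6 with TRAJ37 with 25 (2.10%). In Treg cells TRAV14 with TRAJ56 led with 15 of 511 (2.94%) in 6 pools, joining the V family and the J segment that were both higher in Treg cells, and in CD4 conventional cells TRAV6 with TRAJ22 led with 11 of 445 (2.47%) in 7 pools. TRAV16 and TRAJ33, both lower in Treg cells, were joined to each other in 3 CD8 rearrangements. CDR3 length was nearly alike, at a mean of 40.6 bases in Treg (SD 4.11), 41.0 in CD4 conventional (SD 3.67) and 41.7 in CD8 cells (SD 3.98), with a median of 42 in each.

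V and J positions went together in each lineage. With V genes ranked along the locus by the RefSeq annotation of GRCm38.p6, which holds all 86 V genes used among 130 V segments, the V rank and the J number correlated across rearrangements with a Spearman correlation of 0.452 in Treg (n = 511), 0.419 in CD4 conventional (n = 445) and 0.412 in CD8 cells (n = 1193). The rank counts V segments from upstream to downstream, so V segments near the J row were joined more often to high-numbered J segments. Rearrangements of 1 pool share libraries and are not independent, and these values are descriptions. The mean J number of a pool was 31.3 ± 2.37 in CD4 conventional and 28.3 ± 1.56 in CD8 cells (SD, n = 11 pools each), higher in CD4 conventional cells in 10 of 11 pools (difference 2.93, two-sided p = 0.00195 by an exact sign-flip permutation over pools, adjusted over 6 comparisons 0.0117). With TRAJ7 left out the difference was 0.491 and did not pass (exact permutation p = 0.561). In Treg against CD8 cells the mean J number was 29.05 ± 3.64 and 27.9 ± 2.27 (SD, n = 12 each), a difference of 1.20 (exact permutation p = 0.249) that turned to −1.28 without TRAJ7.

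Cells with a pair of productive alpha chains made up 376 of 2458 cells with an alpha chain (15.3%), from 9.52% to 27.3% per pool (median 15.8%). By lineage they were 68 of 493 Treg (13.8%), 50 of 412 CD4 conventional (12.1%) and 236 of 1428 CD8 cells (16.5%). The second chain was not a trace: the chains of such a cell had medians of 20 and 12 UMIs, and 336 of 376 second chains (89.4%) had at least 5. A second beta chain, which a doublet would often carry, was found in 20 of 376 cells with a pair of alpha chains (5.32%) and in 70 of 2082 cells with 1 alpha chain (3.36%). The part of doublets in the alpha pairs was not tested.

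No difference in this share by lineage, colour or treatment was larger than the spread of the pools allows to call. Pool means were 14.4% ± 9.0 in Treg and 18.5% ± 7.06 in CD8 cells (SD, n = 12 each, difference −4.10 percentage points, exact sign-flip permutation p = 0.277). They were 11.6% ± 7.41 in CD4 conventional and 17.3% ± 5.91 in CD8 cells (n = 11 each, −5.71, exact permutation p = 0.128), and the difference was −7.60 with exact permutation p = 0.0293 before adjustment when RT+FTY720 day 3 replicate 2 was left out. Red cells had 18.5% ± 7.06 and green cells 15.2% ± 9.55 (n = 12 each, 3.37, exact permutation p = 0.371), and with the replicate 2 colours exchanged 17.97% ± 7.19 and 15.8% ± 9.63 (2.22, exact permutation p = 0.537). Irradiated pools had 14.9% ± 3.90 and unirradiated pools 18.1% ± 5.45 (n = 6 each, −3.25, exact permutation within strata p = 0.287), and FTY720 pools 16.1% ± 7.79 and day 3 pools without it 18.6% ± 2.82 (n = 4 each, −2.49, exact permutation p = 0.514). Within wells the difference was −4.75 in RT against NT (n = 4 pools each, without RT and NT at day 3, exact permutation p = 0.278), and −7.43 in RT with FTY720 against RT at day 3 (n = 2 pools each, exact permutation p = 0.333, the smallest that 2 against 2 can give). Treg against CD4 conventional cells differed by 2.64 (14.2% ± 9.41 and 11.6% ± 7.41, n = 11 each, exact permutation p = 0.481). Adjusted over these 6 comparisons every p was 0.514. The median cell had 25 alpha UMIs in Treg, 13 in CD4 conventional and 20 in CD8 cells. Thinned to 10 alpha UMIs per cell, which left out 47 Treg, 140 CD4 conventional and 233 CD8 cells with fewer, the differences were −6.14 in Treg against CD8 cells (11 pools), −2.12 in CD4 conventional against CD8 cells (9 pools) and −0.767 in Treg against CD4 conventional cells (8 pools), with exact permutation p = 0.171, 0.500 and 0.883.

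In cells with a pair of alpha chains the J segments of the pair lay close together. Over 272 pairs, each counted once per pool and lineage, their J numbers correlated with Pearson's r = 0.656 and a Spearman correlation of 0.654, a description across cells that share libraries. Some pairs were found in more than 1 pool, and over the 259 counted once over all pools these values were 0.658 and 0.659. The median distance was 7 J segments within a cell, against 15 between any 2 alpha chains. By lineage Pearson's r was 0.678 in Treg (59 pairs), 0.586 in CD4 conventional (49 pairs) and 0.662 in CD8 cells (164 pairs). The V ranks of a pair showed a weaker relation, with a Spearman correlation of 0.161 over the same 272 pairs. Only 11 of the 272 pairs used the same J segment on both chains.

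**Figure D4:**
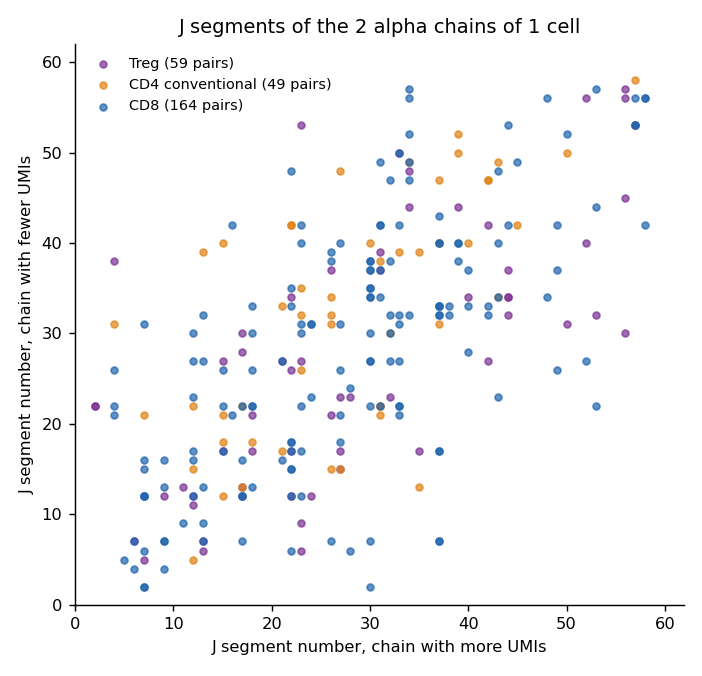
J segment numbers (no unit) of both alpha chains of cells with a pair of productive alpha chains (axes, J number of the chain with more and with fewer UMIs), 1 point per pair and pool, 272 in all. The points gather along the diagonal (Pearson's r = 0.656), with a median distance of 7.

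No gene passed between cells with a pair of alpha chains and cells with 1. In CD8 cells 0 of 7763 genes passed (0%; 10 pools, edgeR, 197 at an unadjusted p under 0.05, 4 by DESeq2) and in CD4 lineage cells, Treg and CD4 conventional together, 0 of 6598 (0%; 8 pools, 355 unadjusted, 1 by DESeq2). Among 20 genes of the TCR and its recombination, Rag1, Rag2, Dntt and Ptcra were too low to test and 0 of the other 16 passed in either fit. Trac, the alpha constant region, had 480 CPM ± 81.5 in CD8 cells with 2 alpha chains and 378 ± 72.9 in those with 1 (SD, n = 10 pools, log2 fold change 0.35, SE 0.09, higher in 9 of 10 pools), and 648 ± 142 against 436 ± 62.5 CPM in CD4 lineage cells (n = 8 pools, 0.53, SE 0.12, higher in 8 of 8). These did not pass over all genes (edgeR adjusted p = 1 and 0.377).

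Large alpha clones were found in CD8 cells. By the chain with more UMIs, cells in alpha clones of at least 2 cells of 1 pool made up 73 of 493 Treg (14.8%), 28 of 412 CD4 conventional (6.80%) and 558 of 1428 CD8 cells (39.1%), and the largest clone had 3, 3 and 19 cells. Identical rearrangements in at least 2 pools made up 18 of 492 in Treg, 7 of 438 in CD4 conventional and 95 of 1089 in CD8 cells. When pools were formed by tag sequence these were 10, 5 and 40. CD8 cells were also the most numerous, which leaves more room for repeats, and no counts at equal cell numbers were made. The largest CD8 clone, TRAV1 with TRAJ7, held 19 red cells of NT day 1 replicate 2 (5.96% of its CD8 cells with an alpha chain), and the next were TRAV7N-5 with TRAJ35 with 14, TRAV4-3 with TRAJ30 with 13, and TRAV10N with TRAJ7 and TRAV1 with TRAJ37 with 12 each, all red cells of NT day 3 replicate 1. Expanded Treg clones had at most 3 cells, and TRAV14-3 with TRAJ56 was among those of 3 cells.

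TRAJ7 rearrangements of CD8 cells came from many V segments and not from 1 clone. Per cell TRAJ7 was carried by 9 of 493 Treg (1.83%), 7 of 412 CD4 conventional (1.70%) and 243 of 1428 CD8 cells (17.0%). The CD8 cells held 96 distinct TRAJ7 rearrangements on 34 V genes of 12 V families, in 109 combinations with a beta chain. The leading V genes were TRAV7D-2 with 18 rearrangements, TRAV3N-3 and TRAV9N-3 with 9 each, TRAV10N with 6 and TRAV12N-2 with 5. Of the 96, 87 ended in the 27 bases in capitals, and 24 of these had a proline codon directly before them, as TRAV1, TRAV8N-2 and TRAV3N-3 show with ccg. All 96 use the same J segment, which supplies this end of the CDR3. The proline count was not compared with other lineages or J segments. In 44 of the 96 the CDR3 was 42 bases long.

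TRAJ7 rearrangements were more often found in several cells, and with particular beta V segments. In CD8 cells 43 of 121 TRAJ7 rearrangements (35.5%) were found in at least 2 cells of a pool, against 164 of 1072 (15.3%) of all other J segments, with means of 2.01 and 1.33 cells. The beta V segment TRBV5 was found in 22.6% of TRAJ7 cells and 4.73% of other CD8 cells, TRBV20 in 20.2% and 1.01%, and TRBV16 in 13.6% and 5.99%. These shares are over cells, so large clones weigh in them, the beta segments were picked after their values were seen, and no test was run.

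TRAJ7 use in CD8 cells was close by colour and varied without a common direction by treatment. It was 69 of 658 rearrangements (10.5%) in red and 54 of 544 (9.93%) in green CD8 cells, and with the replicate 2 colours exchanged 59 of 580 (10.2%) and 64 of 622 (10.3%). By condition it was 7.96% in RT day 1 and 13.3% in NT day 1, and 11.1% in RT with FTY720, 11% in FTY720, 13.5% in RT and 8.31% in NT at day 3, an order that runs opposite ways at day 1 and day 3. The fits by colour and treatment used all lineages, not CD8 cells alone. Red against green was paired within pool and lineage. The RT and FTY720 fits summed the lineages of a pool, so their TRAJ7 values also move with its CD8 share. The log2 fold change of TRAJ7 was 0.03 (SE 0.25) in red against green and −0.21 (SE 0.30) in RT against NT. In FTY720 against no FTY720 at day 3 it was 0.34 (SE 0.46). None passed (edgeR adjusted p = 0.980, 0.922 and 0.890). With the replicate 2 colours exchanged the log2 fold change in red against green was 0.02 (SE 0.25), and within wells it was −0.38 (SE 0.38) in RT against NT and −0.08 (SE 0.93) in RT with FTY720 against RT at day 3.

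No other segment passed by colour or treatment. Red against green called 0 of 18 V families and 0 of 41 J segments (0% each), with 3 and 4 at an unadjusted p under 0.05, of which TRAV9 (log2 fold change 0.60, SE 0.23) and TRAV6 (−0.44, SE 0.18) had the lowest values among the V families (edgeR adjusted p = 0.150 each). RT against NT called 0 of 18 and 0 of 41 (0% each), with 1 (TRAV12, −0.57, SE 0.24) and 0 unadjusted. FTY720 against no FTY720 at day 3 called 0 of 14 and 0 of 35 (0% each), with 1 and 2 unadjusted. DESeq2 also called 0 in each of these 6 fits. With the replicate 2 colours exchanged edgeR called 0 of 18 V families and 0 of 41 J segments (2 and 0 unadjusted). Within wells it called 0 of 16 and 0 of 38 in RT against NT (1 and 0 unadjusted) and 0 of 10 and 0 of 6 in RT with FTY720 against RT at day 3 (0 and 0 unadjusted). Counting also cells in no lineage, which the fits left out, the 8 pools of day 3 held 35 to 511 rearrangements and the 4 of day 1 held 153 to 433.

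CD8 cells with TRAJ7 were unevenly spread over CD8 cell states, a comparison added after TRAJ7 had been seen. CD8 cells were split into those with at least 2 UMIs of Pdcd1, the inhibitory receptor PD-1, and 0 of Ccr7, and those with at least 1 UMI of Ccr7, the lymph node homing receptor of naive and central memory cells, and 0 of Pdcd1. TRAJ7 made up 100 of 520 rearrangements (19.2%) in the Pdcd1 class and 5 of 356 (1.40%) in the Ccr7 class. The share of the Ccr7 class thus lay near that of Treg (1.57%) and CD4 conventional cells (1.57%). Per pool it was 12.0% to 28.4% (median 17.4%) in the Pdcd1 class and 0% to 14.3% (median 0%) in the Ccr7 class. The ranges overlap through the Ccr7 class of RT day 1 replicate 1 alone, a pool with 16.7% in the Pdcd1 and 14.3% in the Ccr7 class. Pool means were 18.9% ± 5.06 and 2.00% ± 4.70 (SD, n = 9 pools), a difference of 16.9 percentage points, higher in the Pdcd1 class in 9 of 9 pools (two-sided p = 0.003906 by an exact sign-flip permutation, the smallest that 9 pools can give). With pools formed by tag sequence the difference was 18.3 (10 of 10 pools). For comparison, TRAJ33 was 7.50% in the Pdcd1 and 3.93% in the Ccr7 class, TRAJ30 3.46% and 6.74%, and TRAV16 6.73% and 9.55%, for which no test was run.

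**Figure D5:**
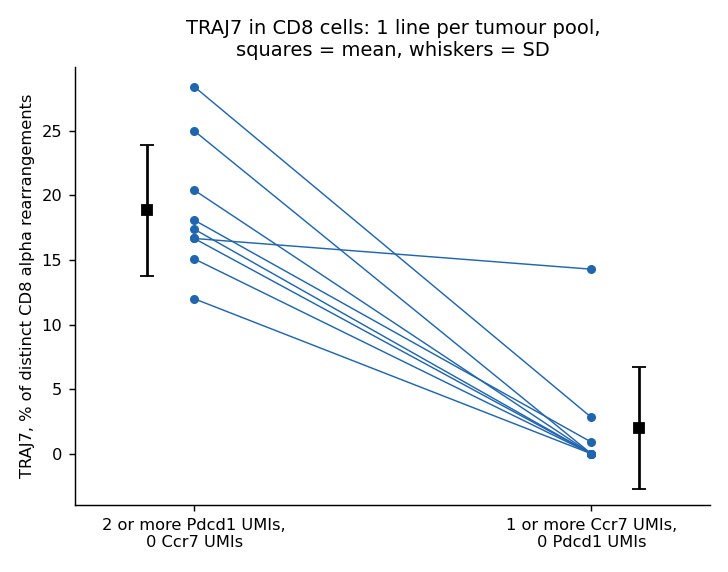
Share of TRAJ7 among distinct CD8 rearrangements (vertical axis, percent) in cells with Pdcd1 UMIs and no Ccr7 and in cells with Ccr7 UMIs and no Pdcd1, 1 line per tumour pool, with squares for the mean and whiskers for the SD of 9 pools. Each line falls towards the Ccr7 class, whose mean is 2.00% against 18.9%, and the flattest is RT day 1 replicate 1.

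Over all genes, CD8 cells with a TRAJ7 chain differed from other CD8 cells of the same pools in 739 of 7491 genes tested (9.87%; 10 pools, edgeR adjusted p under 0.05), 349 higher and 390 lower in TRAJ7 cells. This fit was also added after TRAJ7 had been seen, and it uses many of the same cells as the split by Pdcd1 and Ccr7. Cells of 1 clone share an origin, and a single clone gave 6 of 10 TRAJ7 cells (60%) in RT+FTY720 day 3 replicate 1, 12 of 25 (48%) in NT day 3 replicate 1, 19 of 91 (20.9%) in NT day 1 replicate 2 and 17.6% to 33.3% in the other 7 pools of the fit. Without these 3 pools in turn 896, 583 and 482 genes passed, and without NT day 3 replicate 2 490. A pool had 5 to 91 TRAJ7 and 13 to 275 other cells, with median UMI counts of 20038 to 35322 in TRAJ7 cells and 20690 to 26984 in other cells. Within pools the median was higher in TRAJ7 cells, as with 31543 against 23332.5 in RT day 1 replicate 1, in all but the following pools. It was lower in FTY720 day 3 replicate 2 (20038 against 20690), NT day 3 replicate 1 (22501 against 22812) and RT day 3 replicate 2 (20801 against 21824). The part of depth in the result was not tested.

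Prf1 and Klre1 were among the 10 largest rises in TRAJ7 cells. Prf1, perforin, which forms pores in target cells, had 162 to 2073 CPM per pool in TRAJ7 cells (median 479) and 97.2 to 268 CPM in other CD8 cells (median 151), so the ranges overlap at the low end (log2 fold change 1.50, SE 0.29, edgeR adjusted p = 0.0023, higher in 9 of 10 pools). Klre1, a killer cell lectin-like receptor, had 179 to 545 CPM (median 309) and 65.8 to 157 CPM (median 124), with no overlap (1.48, SE 0.10, edgeR adjusted p = 1.06e-07, 10 of 10 pools). Srgap3 (1.39), Lat2, a transmembrane adaptor (1.38), Slc37a2, a sugar phosphate transporter (1.51), and Specc1 (1.54), Gm36723 (1.51), AA467197 (1.45) and C1qtnf6 (1.38) complete the largest rises beside the beta segment Trbv5 (2.63, SE 0.24, 214 ± 219 CPM in TRAJ7 cells and 31.1 ± 26.5 CPM in others). Named after their values were seen, Pdcd1 rose by 0.95, Havcr2, the checkpoint receptor TIM-3, by 0.96, Entpd1, the ectoenzyme CD39, by 0.88 and Cxcr6, a chemokine receptor, by 0.78 on the log2 scale, each higher in 10 of 10 pools.

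Ccr7 and Lef1 were among the 10 largest falls in TRAJ7 cells. Ccr7 had 0 to 67.8 CPM per pool in TRAJ7 cells (median 17.9) and 56.4 to 300.1 CPM in other CD8 cells (median 119; log2 fold change −2.56, SE 0.27, edgeR adjusted p = 1.04e-05). Lef1, a transcription factor of naive T cells, had a median of 24.7 CPM in TRAJ7 and 170 CPM in other cells (−2.46, SE 0.29, lower in 9 of 10 pools), and Klf3, a transcription factor, 3.18 and 73.0 CPM (−3.04, SE 0.24, 10 of 10). Treml2 (−3.05), Nsg2 (−3.04), Iigp1, an interferon-inducible GTPase (−2.88), and Pou6f1 (−2.45) were also among the largest falls, as were the beta segments Trbv26 and Trbv13-3. Trbv26 was at 0.242 CPM ± 0.561 in TRAJ7 and 140.5 CPM ± 68.0 in other cells, and Trbv13-3 at 4.29 ± 7.70 and 50.6 ± 44.5 CPM. Tcf7, a transcription factor of naive and memory T cells named after its value was seen, fell by 2.39 on the log2 scale.

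Among the 16 testable TCR genes of the list, 4 passed between TRAJ7 and other CD8 cells, beside 9.87% of all genes. Cd3e and Cd3g, signalling subunits of the TCR complex, rose by 0.32 (SE 0.07, 1188 ± 140 CPM in TRAJ7 and 951 ± 102 CPM in other cells, edgeR adjusted p = 0.00588) and 0.39 (SE 0.09, edgeR adjusted p = 0.0122). Zap70, the kinase that binds them, rose by 0.45 (SE 0.08, 326 ± 47.7 and 240 ± 23.8 CPM, edgeR adjusted p = 0.00114). Cd69, an early activation and retention marker, fell by 0.46 (SE 0.12, 367 ± 106 and 498 ± 95.2 CPM, edgeR adjusted p = 0.0175). Trac had 393 ± 105 and 431 ± 100 CPM and Cd5, an inhibitory receptor, 165 ± 39.0 and 210 ± 62.3 CPM (SD, n = 10 pools), neither past the threshold (edgeR adjusted p = 0.367 and 0.0528).

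The invariant alpha chain TRAV11 with TRAJ18 was found in 11 of 2458 cells. These had 5 nucleotide forms of 1 amino acid CDR3 and 11 different beta chains, and came from 6 pools. They were 2 red and 9 green cells, and 7 red and 4 green with the replicate 2 colours exchanged, so their colour rests on which names hold. In 9 of them lineage markers put the cell in no lineage, and 2 were CD4 conventional. Zbtb16, the transcription factor PLZF of innate-like T cells, had a UMI in 11 of 11 of these cells and in 16 of the other 2447 (0.654%), at median depths of 19519 and 20856 UMIs. In CD8 cells, which should lack it, the share was 0.350% of those with an alpha chain and 0.584% of all 1540. TRAV1 with TRAJ33, the invariant alpha chain of mucosal-associated invariant T cells, was found in 0 of 2458 cells, which allows a share of cells up to 0.122%, counting error only.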

How the data were processed

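Each contig in the deposited TCR tables comes with its read and UMI counts, and the deposited matrices give raw UMI counts of genes and hashtags, all made by the authors with Cell Ranger 8.0.1 on mm39, per the submitters' processing notes. Other filters are not stated there. Barcodes under 500 genes or over 10% mitochondrial UMIs were left out, and cells assigned to a hashed sample by a top hashtag of at least 20 UMIs and 3 times the next. No doublet caller was run. Productive alpha contigs were taken as annotated, without further UMI minimum, at medians of 15 to 17 UMIs per chain and well. V genes of the duplicated mouse V cluster can be near identical, so a read assigned to one V gene may belong to its copy, and families were tested.

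Counts of distinct rearrangements per tumour pool and lineage (at least 5) were tested with edgeR 4.0.16 (glmQLFit, glmQLFTest, offset of the log total, segments with at least 10 in all, pool as a block), and UMI counts summed per pool and class (at least 5 cells) with edgeR (filterByExpr, TMM). DESeq2 1.42.0 was an alternative. RT and FTY720 were fitted on counts summed over a pool's lineages, with strata and without the replicate number, which marks a shared well. The correlations of the same-numbered replicates' deviations were −0.09 to 0.334 over 43 J segments, and the block changed no RT or FTY720 call. Single shares were compared by exact permutation over pools, enumerated with NumPy 2.4.6. V and J positions were correlated with SciPy 1.17.1. The edgeR and permutation tests were tested on simulated data. For RT and FTY720 the spread tested is that between tumour pools as named. For lineage, colour and gene comparisons it is that of differences within such pools. The replicates of a condition shared identical clones across colours (66 clones, in 10 of 12 pairs with the same tag sequence). The pools as named may therefore not be independent, and the main p-values do not allow for this. In the red against green usage fits the lineages of a pool enter as separate pairs, which are not independent. Intervals and limits of 3 counts cover counting error only.

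The members, the gene lists and the choice of named genes (segments past the threshold, the 5 most used, the most shared and largest clones, and the 10 largest changes per direction in 1 direction in at least 75% of pools) were chosen with earlier results of these data known. TRAJ7 expression and cell state comparisons were added after TRAJ7 had been seen. No genome was used, and V order comes from RefSeq GRCm38.p6. 1 of the genes that this choice names and 1 of the marker genes are not reported here.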

Additional observations from a re-analysis of the deposited data

Results flagged for a closer look

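The TCR tables held 156 cell barcodes, with 230 contigs, that have no barcode in the expression matrices. They were flagged because they are receptor signal outside the cells analysed, and with no expression or hashtag they could be given no lineage, colour or condition and entered no comparison. The share of cells with 2 alpha chains and the mean J number, over all lineages of a pool, were also checked for a single pool far from the others. None was found in the 8 checks, each on a group of 4 to 6 pools. Values by lineage were not checked in this way.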

How the results depend on the processing

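Pools by tag sequence, comparisons within wells, 10 thinned alpha UMIs and everything on TRAJ7 alone were chosen after seeing the data; other settings were planned. Causes were not tested. Shares of cells with 2 alpha chains turned to −0.767 percentage points in Treg against CD4 conventional cells when thinned, and over distinct sets of rearrangements to 0.111 in RT against NT and 0.335 in FTY720 against none. Leaving out single pools gave −7.60 to −3.37 in CD4 conventional against CD8 cells. Without TRAJ7 the mean J number differed by −1.28 in Treg and 0.491 in CD4 conventional against CD8 cells. For RT against NT it was −0.258 by tag sequence and −0.745 to 0.972 without single pools, and for red against green −0.717 to 0.338, and −1.19 with the replicate 2 colours exchanged. For FTY720 against none it was −1.82 and turned to 0.492 within wells. V families called in CD4 conventional against CD8 cells were 1 with TMM, the top alpha chain only, lineage thresholds of 3 UMIs or tag sequence, 4 with no replicate block, and 1 to 3 without single pools. In Treg against CD4 conventional cells they were 0 by DESeq2, 3 at thresholds of 1 UMI, 2 by tag sequence and 0 to 1 without single pools. In Treg against CD8 cells they were 2 to 5 without single pools (2 without NT day 1 replicate 2), and in red against green 1 with no replicate block and 0 to 2 without single pools. J segments called in Treg against CD8 cells were 11 by DESeq2, 4 with the top chain, 3 without TRAJ7 and 3 to 9 without single pools (3 without NT day 3 replicate 2), and in CD4 conventional against CD8 cells 1 by tag sequence or without TRAJ7 and 1 to 5 without single pools. Genes called between cells with 2 and 1 alpha chains were 4 by DESeq2, 24 with no filter and 0 to 1 without single pools in CD8 cells. In CD4 lineage cells they were 1 by DESeq2, 137 with no filter, 1 without cells with 2 beta chains or at thresholds of 3 UMIs, 2 by tag sequence and 0 to 2 without single pools. TRAJ7 against other CD8 cells gave 1195 genes with no filter, 431 with no replicate block and 482 to 896 without single pools. Pairing RT and NT, and FTY720 and none, by the replicate block changed no call. The differences in the share of cells with 2 alpha chains, −3.25 and −2.49, cannot change under it. The groups compared have equal numbers of pools in each block.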
